A study of Mus musculus with 11 samples.

Results

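The 9 genes described here encode enzymes and enzyme subunits of the tricarboxylic acid cycle: Cs, Idh3a, Idh3b, Idh3g, Ogdh, Dlst, Suclg1, Fh1 and Mdh2. They were chosen by symbol, as every probe set that the platform annotation gives to one of these genes and to no other, which found 17 probe sets for the 9 genes among 22626 non-control probe sets and 12393 genes. The rule itself uses no measured value. All 17 probe sets passed the filter on low signals and were tested. Where a gene had several probe sets, the one with the highest mean log2 signal stood for the gene, and the others are given beside it.

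The cycle runs in the matrix of the mitochondrion. It takes in the acetyl group that pyruvate oxidation and fatty acid oxidation deliver as acetyl-CoA, releases it as carbon dioxide and hands the electrons to the respiratory chain as NADH and FADH2. Brown fat, which burns fuel for heat, is packed with mitochondria, while lymphocytes at rest hold few.

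The arrays measured adventitia, the outer coat of a vessel, which was cut by laser microdissection from the abdominal aorta. All mice were male, 78 weeks old and fed normal chow. ATLO adventitia (4 arrays) came from the Apoe-deficient strain B6.129P2-Apoe<tm1Unc>/J, labelled ApoE-/-, at sites of artery tertiary lymphoid organs, the lymphoid aggregates that form in the adventitia beside atherosclerotic lesions. Outside-lesion adventitia (4 arrays) came from the same strain, away from the lesions by its tissue label. The series' design text speaks instead of mice that had no lesions, so whether ATLO and outside-lesion samples differ by site within a mouse or by mouse is not settled. Wild-type adventitia (3 arrays) came from C57BL mice, and its sample titles also carry the letters PNS, which the labels do not explain. For both groups of Apoe-deficient samples 200 sections of 10 µm were pooled, and RNA from Trizol lysates was purified by phenol/chloroform followed by RNeasy Micro columns and transcribed in vitro for 68 h. The wild-type protocol used RNeasy Lipid Tissue Mini columns and 24 h of transcription, so that genotype and RNA preparation cannot be told apart in any comparison with wild type. Whether arrays within a group stem from different mice is not stated in the labels, so p-values here reflect only array-to-array spread, part of which could be technical.

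Apoe matched the genotype in all 11 arrays, with a mean signal of 134 ± 31.1 in ATLO, 109.98 ± 67.0 in outside-lesion and 12417 ± 651 in wild-type adventitia (SD, n = 4, 4 and 3). Median signals lay between 151.5 and 191 per array, on the authors' scale on which every array has the same trimmed mean. The ratio of the 3' to the 5' actin control probe sets, a measure of RNA degradation and transcript length, was 1.71 to 8.14 in ATLO, 6.22 to 12.0 in outside-lesion and 4.19 to 5.40 in wild-type arrays. Fibroblast and smooth muscle markers, which define the vessel wall, were measured for 8 of 8 and 8 of 8 listed genes, and their summed signals were 54582 to 103671 and 11057 to 29990.0 in ATLO, 29911 to 78587 and 18869 to 58217 in outside-lesion, and 51725 to 58942 and 39611 to 43605 in wild-type arrays. Outside-lesion replicate 2 stood apart from the other 3 outside-lesion arrays for every enzyme, and results for the enzymes and counts for the lists are also given without it.

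The cycle enzymes differ in what the sequence before their genes carries, and these sequences are shown first because the genes moved together on the arrays. RefSeq windows on GRCm38.p6, from 250 bases before to 50 after an annotated start, were at hand for 8 of the 9 genes in 13 windows, 6 of them starts of Ogdh. Their GC content was 49.3% to 72.3%, against a median of 52.7% over 32851 windows. Both strands were searched for the letters of motifs known from promoters of mitochondrial genes, chosen with these sequences in view, and none of the motifs contains another. In the lines below, capitals mark every match to a searched motif. The windows lie at chr2:130284402-130284701 on the minus strand for Idh3b, chrX:73786848-73787147 on the minus strand for Idh3g, chr12:85110583-85110882 on the plus strand for Dlst and chr11:6292308-6292607 on the plus strand for Ogdh.
Idh3b: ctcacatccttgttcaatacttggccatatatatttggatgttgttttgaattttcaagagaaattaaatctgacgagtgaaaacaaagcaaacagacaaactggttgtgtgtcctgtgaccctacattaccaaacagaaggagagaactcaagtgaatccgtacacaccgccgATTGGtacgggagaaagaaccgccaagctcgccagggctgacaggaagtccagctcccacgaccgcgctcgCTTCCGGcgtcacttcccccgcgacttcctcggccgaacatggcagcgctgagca
Idh3g: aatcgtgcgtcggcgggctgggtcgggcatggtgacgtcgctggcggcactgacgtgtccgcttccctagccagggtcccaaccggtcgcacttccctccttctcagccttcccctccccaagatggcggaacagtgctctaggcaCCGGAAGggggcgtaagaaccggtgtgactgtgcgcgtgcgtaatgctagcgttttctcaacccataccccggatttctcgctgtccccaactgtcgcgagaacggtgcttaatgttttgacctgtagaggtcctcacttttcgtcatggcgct
Dlst: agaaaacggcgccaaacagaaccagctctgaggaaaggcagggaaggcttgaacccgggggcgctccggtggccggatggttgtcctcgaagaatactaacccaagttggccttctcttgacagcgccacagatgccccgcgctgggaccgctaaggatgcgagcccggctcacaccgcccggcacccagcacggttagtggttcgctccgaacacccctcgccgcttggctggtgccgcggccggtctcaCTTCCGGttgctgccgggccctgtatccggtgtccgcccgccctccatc
Ogdh: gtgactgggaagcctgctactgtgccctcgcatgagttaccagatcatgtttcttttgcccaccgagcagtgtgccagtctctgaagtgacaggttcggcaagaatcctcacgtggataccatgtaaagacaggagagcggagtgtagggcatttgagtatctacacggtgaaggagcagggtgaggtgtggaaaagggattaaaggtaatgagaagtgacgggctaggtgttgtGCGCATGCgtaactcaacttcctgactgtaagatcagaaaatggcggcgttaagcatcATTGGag

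Idh3b, Idh3g and Dlst, 3 of the 8 genes, held the letters CCGGAAG on either strand, a core bound by GABPA, an ETS factor. Of 27025 genes with a window, 9.93% held it in at least 1 window. The NRF1 core GCGCATGC, held by 3.05% of all genes, occurred in Ogdh, in the window printed above and in 1 that overlaps it. The letters AAGGTCA, to which oestrogen-related receptors bind, occurred at another start of Ogdh and for 5.38% of all genes. The cyclic AMP response element TGACGTCA occurred for Mdh2 and Ogdh, and for 2.03% of all genes. CCAAT boxes occurred for Cs, Fh1, Idh3b and Ogdh, 4 of the 8 genes, against 41.1% of all genes. Ogdh has 6 windows and so more room for a match than a gene with 1. The Suclg1 window held none of these letters, which says nothing about the factors, and a match is not a shown binding site.

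ATLO adventitia was set against outside-lesion adventitia of the same strain to find what distinguishes vessel wall with lymphoid aggregates. Transcripts of all 9 cycle enzymes fell in ATLO adventitia, by between 2.76-fold for Mdh2 and 5.26-fold for Idh3a. Every ATLO array lay below every outside-lesion array for each of the 9 genes. Over all 14988 probe sets tested, 31.9% were called in either direction and 13.9% fell by the same rule (limma, Benjamini-Hochberg adjusted p under 0.05), and 13.2% had all ATLO arrays below all outside-lesion arrays. The median change of the 9 genes was -1.81 on the log2 scale, against 0.10 over all probe sets tested. These are bulk samples, so fewer cells of a type and less RNA per cell cannot be told apart.

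**Figure D1:**
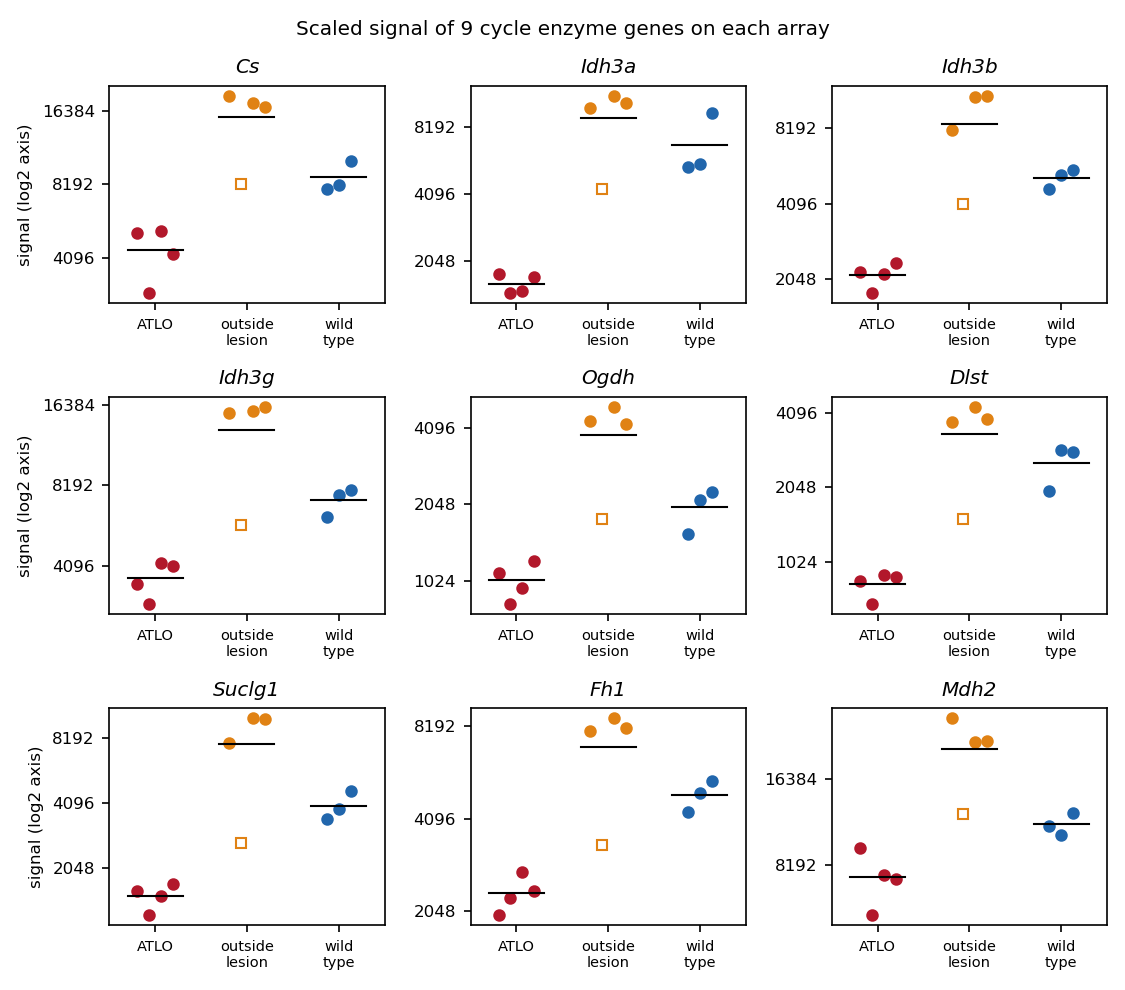
Signal of the 9 cycle enzymes on each array, on a log2 axis of scaled signal intensity, with ATLO, outside-lesion and wild-type arrays from left to right, 1 point per array and a line at the group mean; the open square is outside-lesion replicate 2. In every panel the 4 ATLO arrays lie below all other arrays, and the open square is the lowest outside-lesion array.

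Cs encodes citrate synthase, which joins acetyl-CoA to oxaloacetate and opens the cycle. Its signal was 5176, 2928, 5259 and 4231 in the ATLO arrays, against 18812, 8220.1, 17635 and 16965 in the outside-lesion arrays. The groups did not overlap, and outside-lesion replicate 2 was the array nearest to ATLO. Cs fell by 1.78 ± 0.27 on the log2 scale (SE), with a 95% interval of -2.35 to -1.20 and an adjusted p of 2.47e-04. Its other 2 probe sets gave changes of -1.85 and -1.65 and also passed.

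Idh3a, Idh3b and Idh3g encode the subunits of the NAD-dependent isocitrate dehydrogenase, the step at which the cycle first releases carbon dioxide; the product of Idh3a is the catalytic subunit and the others are regulatory. Idh3a signals were 1781, 1459.5, 1486 and 1720.4 in ATLO arrays, against 9954, 4288, 11333 and 10551 in outside-lesion arrays. No other enzyme of the 9 had a larger estimate than Idh3a, which fell by 2.40 ± 0.28 (adjusted p = 4.86e-05). Its 2 dimmer probe sets gave -2.14 and -2.31. Idh3b signals were 2175, 1792.5, 2146 and 2369.7 in ATLO arrays, against 8069, 4098, 10939 and 11069 in outside-lesion arrays. Idh3b fell by 1.91 ± 0.26 (adjusted p = 1.25e-04), and its other probe set gave -1.72. Idh3g signals were 3505, 2942, 4175 and 4094.5 in ATLO arrays, against 15193.5, 5830.1, 15461 and 16058 in outside-lesion arrays. Idh3g fell by 1.74 ± 0.28 (adjusted p = 4.23e-04), and its other probe set gave -1.69.

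Ogdh and Dlst encode the catalytic and the succinyl-transferring component of the 2-oxoglutarate dehydrogenase complex, which releases carbon dioxide again and makes succinyl-CoA. Ogdh signals were 1104, 831, 963 and 1229 in ATLO arrays, against 4363, 1794, 4946 and 4232 in outside-lesion arrays, and Ogdh fell by 1.81 ± 0.27 (adjusted p = 2.61e-04). Dlst signals were 858, 690.0, 907 and 885 in ATLO arrays, against 3752, 1527, 4328 and 3856 in outside-lesion arrays, and Dlst fell by 1.91 ± 0.28 (adjusted p = 1.88e-04). Neither gene had an ATLO array that reached the lowest outside-lesion array. The second probe set of Dlst was dim, at 90.6 to 139 in ATLO and 93.5 to 285 in outside-lesion arrays, and with a change of -0.68 ± 0.36 (adjusted p = 0.164) it was the only 1 of the 17 probe sets that did not pass in this comparison.

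Suclg1 encodes the alpha subunit that both forms of succinyl-CoA synthetase share, the enzyme that makes a nucleoside triphosphate directly in the cycle. Suclg1 signals were 1605, 1245, 1533 and 1742 in ATLO arrays, against 7799, 2681, 10137 and 10047 in outside-lesion arrays. Suclg1 fell by 2.16 ± 0.34, a 4.47-fold difference (adjusted p = 3.23e-04), and outside-lesion replicate 2 lay at 28.7% of the mean of the other 3 arrays of its group.

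Fh1 encodes fumarase, which adds water to fumarate, and Mdh2 encodes the mitochondrial malate dehydrogenase, which restores oxaloacetate. Fh1 signals were 1987, 2257, 2754 and 2388 in ATLO arrays, against 7923, 3369, 8719.6 and 8077 in outside-lesion arrays, and Fh1 fell by 1.50 ± 0.26 (adjusted p = 6.44e-04). Mdh2 signals were 9406, 5451, 7566 and 7274 in ATLO arrays, against 26825, 12361, 22063 and 22243 in outside-lesion arrays. Mdh2 fell by 1.46 ± 0.24 (adjusted p = 4.49e-04) and its other probe set gave -1.73. The last 2 enzymes of the cycle thus had the estimates closest to 0 of the 9, though their intervals overlap those of the others.

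Without outside-lesion replicate 2 the 9 genes still fell, with a median change of -2.14. With the actin ratio as a covariate, all 9 still fell, with a median of -1.53 and a range of -2.16 to -1.10.

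**Figure D2:**
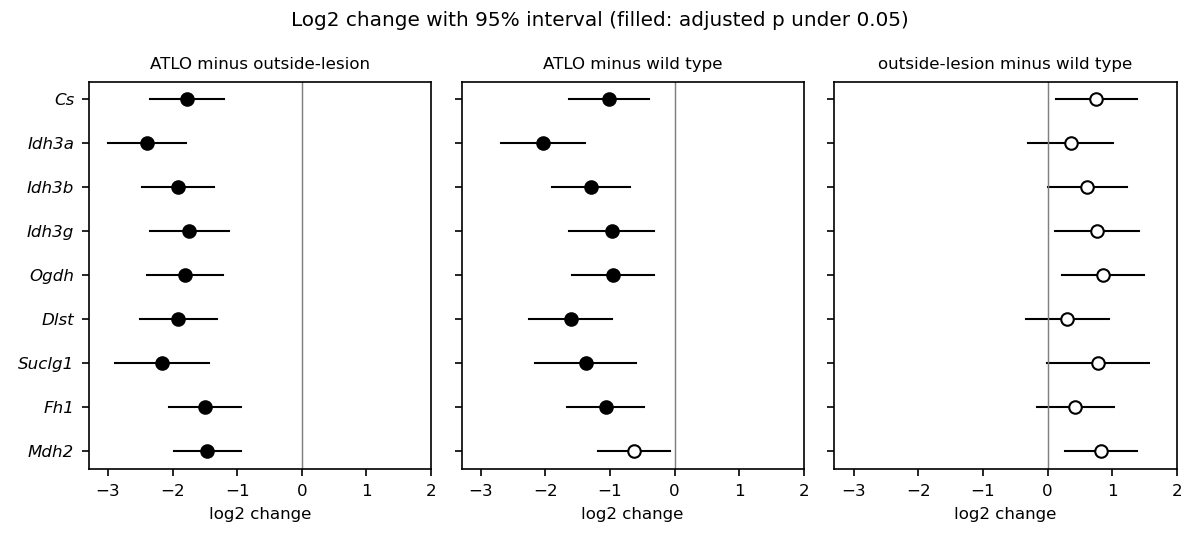
Log2 change of the 9 cycle enzymes in the 3 comparisons, with 95% intervals from the fit over all 11 arrays; filled points passed at an adjusted p under 0.05, and the grey line marks no change. All 9 points of ATLO against outside-lesion are filled and lie at -1.46 or lower, 8 of 9 are filled for ATLO against wild type, and none is for outside-lesion against wild type, where all estimates are above 0.

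ATLO adventitia also held less of these transcripts than wild-type adventitia. Of the 9 genes 8 fell, all but Mdh2, and for all 9 every ATLO array lay below every wild-type array. Over all probe sets tested 26.8% were called in either direction, 13.4% fell by the same rule, and 20.8% had all ATLO arrays below all wild-type arrays. The median change was -1.07 for the enzymes and -0.05 over all probe sets tested. This comparison shares its ATLO arrays with the one before.

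Idh3a again had the largest estimate: its ATLO arrays at 1459.5 to 1781 stood against 5392, 5599.8 and 9519.6 in wild-type arrays, and Idh3a fell by 2.04 ± 0.30, a 4.11-fold difference (adjusted p = 5.31e-04). Its other probe sets gave -1.97 and -1.81. Dlst, at 690.0 to 907 in ATLO arrays against 1975, 2904.5 and 2836.5 in wild-type arrays, fell by 1.61 ± 0.30 (adjusted p = 0.00203). Suclg1, against wild-type signals of 3454, 3854.5 and 4649.5, fell by 1.38 ± 0.36 (adjusted p = 0.0138). Idh3b, against wild-type signals of 4682, 5325.5 and 5572.5, fell by 1.30 ± 0.28 (adjusted p = 0.00495).

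Changes of about 1 on the log2 scale were found for the other genes that passed. Fh1 fell by 1.07 ± 0.28 (adjusted p = 0.0129), against wild-type signals of 4296, 4975 and 5447.5. Cs fell by 1.02 ± 0.29 (adjusted p = 0.0196), against 7841, 8149.9 and 10197 in wild-type arrays. Idh3g fell by 0.98 ± 0.30 (adjusted p = 0.0309), against 6225, 7534 and 7840.3, and Ogdh fell by 0.95 ± 0.30 (adjusted p = 0.0302), against 1569.9, 2129 and 2300.4. Mdh2, with wild-type signals of 11199.9, 10392 and 12439.7, changed by -0.63 ± 0.26 (95% interval -1.19 to -0.08, adjusted p = 0.0856), although its second probe set passed, at -1.15 (adjusted p = 0.00925). Without wild-type replicate 3, the array with the highest mean of the 9 enzymes in its group, only Idh3a, Idh3b and Dlst passed, and these 3 passed whichever array was left out. Outside-lesion replicate 2 belongs to neither group of this comparison but enters the shared estimate of the spread and the filter on low signals, and without it Mdh2 passed as well (adjusted p = 0.0291).

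Outside-lesion adventitia had higher mean signals than wild-type adventitia for all 9 enzymes, but none passed. The estimates ran from 0.30 for Dlst to 0.86 for Ogdh with a median of 0.76, against -0.11 over all probe sets tested, and the groups overlapped for every gene. The median was 0.38 after quantile normalization and 0.45 with the actin ratio as a covariate. In this comparison 3.26% of all probe sets were called in either direction, 1.72% were called higher, and 8.13% had all outside-lesion arrays above all wild-type arrays. At an unadjusted p under 0.05, 5 of the 9 would pass: Cs, Idh3b, Idh3g, Ogdh and Mdh2. The share of all probe sets at that looser threshold is not given here, so this count cannot be weighed. For Cs, at 0.76 ± 0.29, the 95% interval ran from 0.14 to 1.38 (limma adjusted p = 0.150).

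The overlap came from 1 array. For all 9 genes outside-lesion replicate 2 was the lowest array of its group, at 28.7% to 52.1% of the mean of the other 3, yet above every ATLO array. It lay below every wild-type array for 6 of the 9, whereas the other 3 outside-lesion arrays lay above every wild-type array for 9 of 9. The highest array was 2.17 to 3.78 times the lowest among outside-lesion arrays, over the 9 genes, compared with 1.22 to 1.80 times among ATLO arrays and 1.19 to 1.77 times among wild-type arrays. Without that array 7 of the 9 genes were called higher in outside-lesion than in wild-type adventitia, all but Idh3a and Dlst, with changes of 1.23 for Suclg1, 1.19 for Ogdh, 1.12 for Idh3g, 1.06 for Mdh2, 1.04 for Cs, 0.94 for Idh3b and 0.75 for Fh1 and adjusted p-values between 0.00418 and 0.0207. The number of probe sets called in all, in either direction, was then 887, against 489 with it. The 887 are not split by direction here, so the 7 genes cannot be set against a share called higher.

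Averaged over the 9 enzymes and set against the wild-type mean, the log2 level was -1.13, -1.50, -1.13 and -1.11 in the ATLO arrays. It was 0.90, -0.35, 1.03 and 0.96 in the outside-lesion arrays and -0.21, 0.00 and 0.21 in the wild-type arrays. The order of the group means was therefore outside-lesion, wild-type and ATLO from high to low. With all arrays in, the first and the second overlapped and none of the 9 enzymes passed between them after adjustment. The last lay apart from both.

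Most fat markers also fell in ATLO against outside-lesion adventitia. Of 10 brown fat markers, 9 had a tested probe set and 8 of these fell in ATLO against outside-lesion adventitia, with a median of -3.37, or -4.12 without outside-lesion replicate 2. Their summed signal was 1753 to 5816 in ATLO, 8123 to 86959 in outside-lesion and 17057 to 47477 in wild-type arrays. Ucp1, the uncoupling protein by which brown fat makes heat, had signals of 14.2, 4.3, 694.9 and 660.7 in ATLO arrays, the first 2 of them below the floor of 35.1. It had 26125, 143, 26624 and 20513 in outside-lesion arrays and 1573, 5513 and 20357 in wild-type arrays. Cidea, which coats lipid droplets in brown fat cells, had 572, 360.1, 874.5 and 947 in ATLO arrays, against 15072, 2589.6, 15942 and 15745 in outside-lesion arrays and 6513, 9704 and 8534 in wild-type arrays. Outside-lesion replicate 2 was thus the lowest of its group for both genes, as it was for the enzymes. The same held for the other tested brown fat markers except Elovl3 and Dio2. Elovl3 was at 246 in replicate 2 and 190 in replicate 1, and Dio2 at 302 in replicate 2 and 292 in replicate 4.

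Of 8 tested white and general fat markers 7 fell in ATLO against outside-lesion adventitia, with a median of -1.55, and their summed signal was 29929 to 84824 in ATLO, 112647 to 189830.0 in outside-lesion and 71020.3 to 84339 in wild-type arrays. Adipoq, the fat-cell hormone adiponectin, had 15968, 8152, 11942 and 14621 in ATLO arrays, against 39107, 35535, 29539 and 29506 in outside-lesion arrays and 21556, 19437 and 21753.5 in wild-type arrays. Outside-lesion replicate 2 was within the range of the other 3 arrays of its group for Adipoq, but its mean over the 8 genes was the highest of the group, at 1.12 on the log2 scale above the wild-type mean, with the others at 0.51 to 0.95. The markers' part in the change of the enzymes was not tested.

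**Figure D3:**
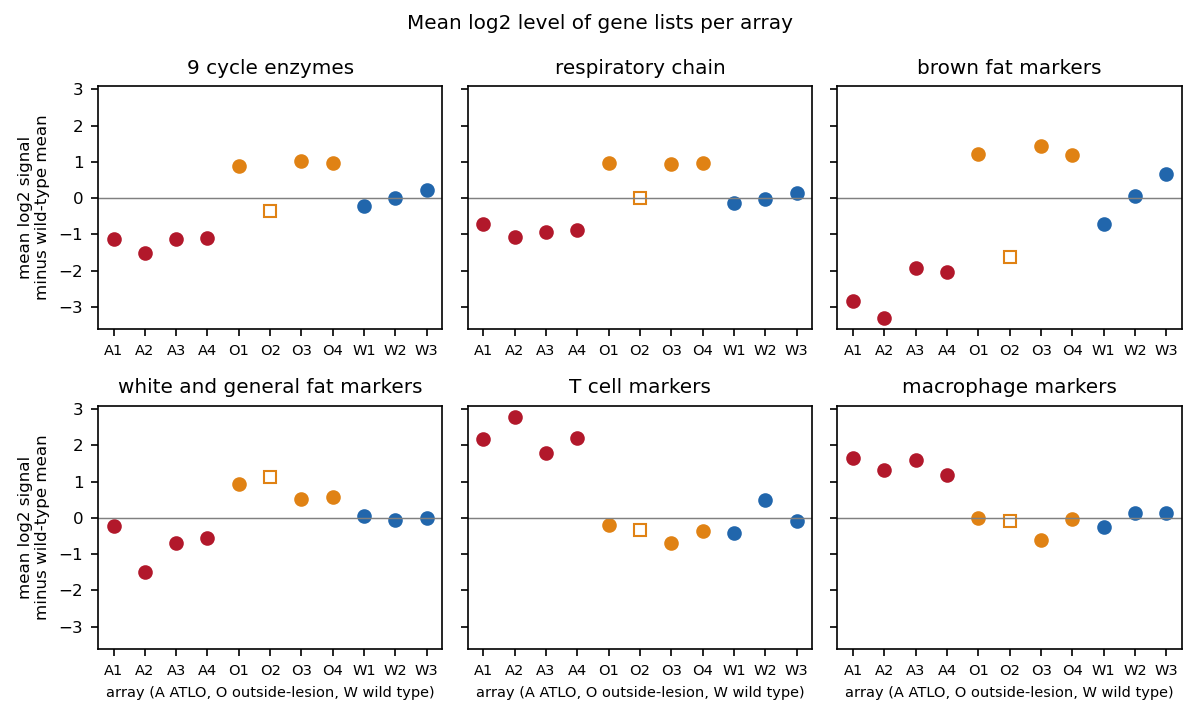
Mean log2 level of the cycle enzymes, the respiratory chain and 4 cell type marker lists on each array, relative to the wild-type mean, with ATLO, outside-lesion and wild-type arrays from left to right; the open square is outside-lesion replicate 2. The cycle enzymes and the brown fat markers are both low in the 4 ATLO arrays, high in 3 outside-lesion arrays and lower in outside-lesion replicate 2, in which white fat markers remain high.

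Immune cell markers moved the other way. Of the 7 tested T cell markers all 7 rose in ATLO against outside-lesion adventitia (median 2.64), as did 7 of 7 B cell markers (2.85) and 6 of 7 macrophage markers (1.88). Over all 14988 probe sets tested 4777 were called in this comparison, 2089 of them lower and the rest higher. Their summed signals were 3394 to 6640.3, 10101 to 23837 and 29120.1 to 45628 in ATLO arrays, 496 to 771, 899 to 2266 and 11550.4 to 18997 in outside-lesion arrays, and 616 to 1348, 799 to 7183 and 14187 to 18159 in wild-type arrays. Of 12 markers of skeletal and cardiac muscle, another tissue rich in mitochondria, 3 were tested and none was called in any comparison, with summed signals of 162 to 685 in ATLO, 212 to 440.1 in outside-lesion and 228 to 360 in wild-type arrays. Endothelial markers fell for 4 of 8, fibroblast markers rose for 5 of 8 and smooth muscle markers fell for 2 of 8; without outside-lesion replicate 2 these counts were 3, 3 and 0, while those of the fat and immune lists were the same. The part of these cells in the change of the enzymes was not tested.

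Subunits of 1 complex did not all move by the same amount. As differences of log2 signal between partner probe sets within an array, which show unequal change but not the amounts of the proteins, the values below were picked after they had been seen and carry no test. Idh3a minus Idh3b was -0.39 ± 0.12 in ATLO, 0.09 ± 0.16 in outside-lesion and 0.35 ± 0.37 in wild-type arrays (SD), with every ATLO array below every other array. Idh3b minus Idh3g, the regulatory pair, was -0.79 ± 0.12, -0.61 ± 0.20 and -0.47 ± 0.05 in the same order of groups, and outside-lesion arrays overlapped both other groups. Idh3a minus Idh3g was -1.18 ± 0.24, -0.53 ± 0.09 and -0.12 ± 0.36, with no overlap between any of them for the brighter Idh3g probe set. Outside-lesion and wild-type arrays were only just apart, at -0.443 for the highest of the former and -0.428 for the lowest of the latter. With the other Idh3g probe set they overlapped, while ATLO arrays stayed lowest. Wild-type replicate 2 had 5599.8 for Idh3a against 5200.8 there, a smaller ratio than on any outside-lesion array, such as 10551 against 8057 in replicate 4. By its brightest probe set, the signal of the catalytic subunit was thus lower relative to its regulatory partners in ATLO adventitia than in the other groups. Outside-lesion replicate 2, at -0.44 for Idh3a minus Idh3g, lay with its own group.

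With the brighter Dlst probe set, Ogdh minus Dlst separated the samples by genotype instead: it was 0.30 ± 0.16 in ATLO and 0.19 ± 0.04 in outside-lesion arrays, against -0.36 ± 0.08 in wild-type arrays, with no overlap between either group and wild type. RNA preparation differs along the same line and cannot be told apart from genotype. With the dim second probe set of Dlst, at 88.2 to 190.5 in wild-type arrays, wild-type arrays overlapped both other groups. Sucla2 and Suclg2 encode the beta subunits that make succinyl-CoA synthetase specific for ADP and for GDP. Sucla2 minus Suclg2 was 2.34 ± 0.08 in ATLO arrays, 3.87 ± 0.90 in outside-lesion arrays and 3.78 ± 0.35 in wild-type arrays. Outside-lesion replicate 2, at 2.55, lay nearer to the ATLO arrays (2.25 to 2.44) than to the other 3 arrays of its group (4.12 to 4.56). Mdh2 minus Mdh1, the mitochondrial against the cytosolic malate dehydrogenase, was 0.14 ± 0.20 in ATLO, 0.48 ± 0.49 in outside-lesion and 1.24 ± 0.37 in wild-type arrays. Outside-lesion replicate 2, at -0.19, lay below every ATLO array (-0.04 to 0.33), and the other 3 arrays of its group, at 0.47 to 0.96, lay above every ATLO array. With the other Mdh2 probe set replicate 2 no longer lay below every ATLO array. It had 6639 for Mdh2 against 14064 for Mdh1 there, a larger ratio than in ATLO replicate 1, at 3402 against 7693.

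**Figure D4:**
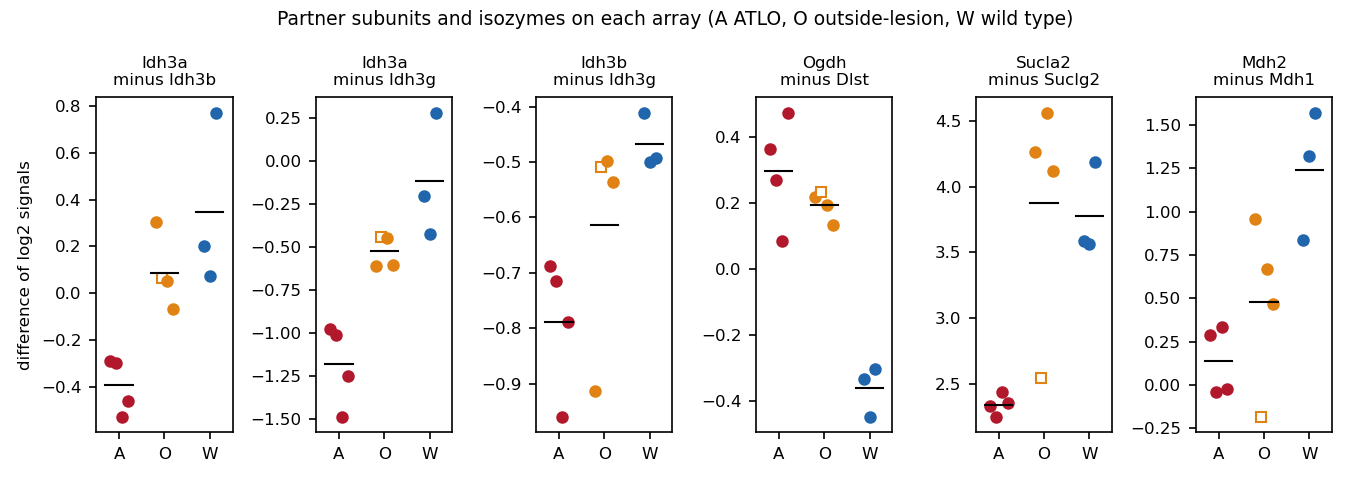
Difference of log2 signal between partner genes on each array, with ATLO, outside-lesion and wild-type arrays from left to right and a line at the group mean; the open square is outside-lesion replicate 2. For the probe sets drawn, the brightest of each gene, Idh3a minus Idh3g is lowest in ATLO and highest in wild-type arrays with no overlap. Outside-lesion and wild-type arrays nearly touch, and they overlap with the other Idh3g probe set, which is not drawn. Ogdh minus Dlst, as drawn, is above 0 in both Apoe-deficient groups and below 0 in wild-type arrays.

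The remaining subunits of the cycle followed the 9 genes in direction. Of 8 listed, 7 had a probe set of their own, and all 7 fell in ATLO against outside-lesion adventitia, with a median of -1.66, and 6 of 7 fell against wild type. Sucla2 had mean signals of 1932 ± 118 in ATLO, 11533 ± 5376 in outside-lesion and 6764 ± 1126 in wild-type arrays and fell by 2.38 ± 0.36 in ATLO against outside-lesion adventitia (limma adjusted p = 2.52e-04). Suclg2, at 381 ± 21.5, 691 ± 93.1 and 491 ± 75.4, fell by 0.85 ± 0.15 (adjusted p = 8.10e-04), and against wild type its change was -0.36 (adjusted p = 0.120). Dld, the lipoamide dehydrogenase shared by the pyruvate and 2-oxoglutarate complexes, fell by 1.91 (adjusted p = 3.15e-05). The succinate dehydrogenase subunits, which also form complex II of the respiratory chain, fell by 1.58 for Sdha, 1.66 for Sdhb, 1.65 for Sdhc and 1.90 for Sdhd. Sdhc was also the only 1 of the 7 called in outside-lesion against wild-type adventitia, where it was higher by 1.01 ± 0.18 (adjusted p = 0.0165), with means of 3383 ± 543 and 1657.5 ± 66.6.

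The pyruvate entry list holds genes that bring pyruvate into the cycle and also the Pdk kinases, which oppose that step. Its genes, kinases among them, fell for 7 of 8 in ATLO against outside-lesion adventitia (median -1.81) and for 7 of 8 against wild type. Pdk4, a kinase that shuts the pyruvate dehydrogenase complex, fell by 3.43 ± 0.54 (limma adjusted p = 3.32e-04) and, without outside-lesion replicate 2, fell by 4.18 ± 0.22, with means of 448 ± 123 in ATLO, 6146 ± 3444 in outside-lesion and 4205 ± 1041 in wild-type arrays. Dlat, the acetyl-transferring component of that complex, fell by 2.07 ± 0.23 (adjusted p = 3.60e-05). Pdk3, another kinase of the family, rose by 1.91 ± 0.43 (adjusted p = 0.00440), with means of 209 ± 87.1 in ATLO and 49.95 ± 32.5 in outside-lesion arrays. It was dim: outside-lesion replicates 1 and 3, at 29.8 and 15.5, lay below the floor of 35.1.

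The list of isozymes outside the cycle also holds related enzymes that are not isozymes, such as Acly and Nnt. Its genes fell for 5 of 7, with a median of -0.98, and Nnt, the transhydrogenase, rose by 0.84. The largest changes were those of Acly, the cytosolic citrate lyase, at -1.43, of Idh2, the NADP-dependent mitochondrial isocitrate dehydrogenase, at -1.21, and of Mdh1 at -1.12. Mdh1 was also higher in outside-lesion than in wild-type adventitia, by 1.59 ± 0.19 (limma adjusted p = 0.00269), with means of 14453 ± 1078 and 4874 ± 1216. Of 13 genes of anaplerosis and shuttles, which fill and drain the cycle, 6 fell and 3 rose. Pck1, the cytosolic enzyme that draws oxaloacetate toward glycerol and glucose, fell by 2.76 ± 0.32, while the mitochondrial form Pck2 rose by 0.72. Me1, the cytosolic malic enzyme, fell by 1.77 ± 0.47 and Pcca, a subunit of propionyl-CoA carboxylase, fell by 1.77 ± 0.15. Of 2 tested genes on the list of immunometabolite enzymes, Hif1a, a hypoxia-regulated transcription factor, rose by 1.33 ± 0.20 (adjusted p = 2.45e-04) and Sirt3, a mitochondrial deacylase, fell by 1.51 ± 0.28 (adjusted p = 0.00110).

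Regulators and general parts of the mitochondrion fell for 9 of 16, with a median of -0.74. Among those that passed, the largest changes were those of 2 coactivators and a matrix chaperone: Ppargc1a fell by 2.77 ± 0.50 (limma adjusted p = 9.62e-04), Ppargc1b fell by 2.12 ± 0.33 (adjusted p = 2.92e-04) and the chaperone Hspa9 fell by 1.69 ± 0.19 (adjusted p = 3.34e-05). Ppargc1a was dim in ATLO arrays, with a mean of 49.4 ± 3.1 against 410 ± 268 in outside-lesion arrays. Of the transcription factors whose motifs were searched above, Esrra, the oestrogen-related receptor alpha, fell by 0.85 ± 0.20 (adjusted p = 0.00600). Nrf1 changed by 0.26 and Gabpa by -0.03 without passing, with 95% intervals that reach from -0.10 to 0.62 and from -0.41 to 0.36. Tfam, which packs and transcribes mitochondrial DNA, changed by 0.23 without passing.

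The respiratory chain takes the electrons that the cycle delivers. All 18 tested genes fell in ATLO against outside-lesion adventitia, with a median of -1.64, and 12 of 18 fell against wild type (median -0.87). Cycs, the electron carrier cytochrome c, fell by 2.13 ± 0.24, Cyc1, cytochrome c1 of complex III, by 2.12 ± 0.27 and Uqcrc2, a core protein of that complex, by 2.00 ± 0.27. The mean log2 level of the chain relative to the wild-type mean was -0.71, -1.08, -0.94 and -0.87 in ATLO arrays and 0.96, 0.02, 0.95 and 0.97 in outside-lesion arrays. The mean of the 9 cycle enzymes minus that of the chain was -0.42, -0.42, -0.20 and -0.23 in ATLO arrays, against -0.08, 0.01 and 0.07 in wild-type arrays, which did not overlap. In outside-lesion arrays that difference was -0.06, -0.37, 0.07 and 0.00, so that replicate 2 lay among the ATLO arrays. No test was made of the difference between the lists, and both rest on the same arrays.

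Leaving out outside-lesion replicate 2, an alternative chosen after the data were seen, gave the same counts of called genes for the cycle and pathway lists in ATLO against outside-lesion adventitia, with medians of -1.97 for the other cycle subunits, -1.87 for pyruvate entry, -0.78 for mitochondrial regulators and parts and -1.80 for the respiratory chain. Against wild type, 17 of 18 respiratory chain genes then fell in ATLO adventitia. In outside-lesion against wild-type adventitia, 16 of 18 respiratory chain genes were then called higher, against 3 with the array. So were 3 of 7 other cycle subunits, against 1, 3 of 8 genes of pyruvate entry, against none, and 4 of 16 mitochondrial regulators and parts, against 2. Of 6 genes of the isozyme list tested without the array 2 were called higher, against 1 of 7 with it, and Sirt3 was called higher only without it. Brown fat markers were called higher for 5 of 9 without it and for none with it. No share of all probe sets called higher without the array stands beside these counts.

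**Figure D5:**
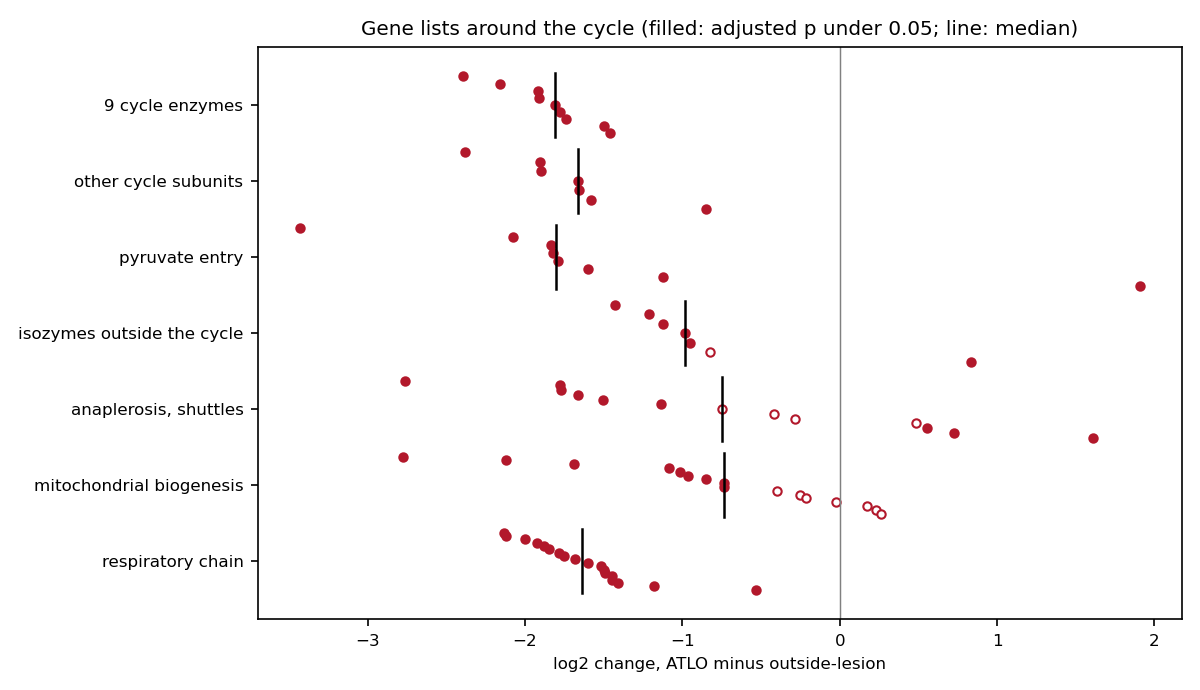
Log2 change of each tested gene in ATLO against outside-lesion adventitia for the cycle and 6 pathway lists, without the cell type marker lists, 1 point per gene, filled where the adjusted p was under 0.05, with a line at the list's median. The cycle enzymes, the other cycle subunits and the respiratory chain lie below 0 throughout with every point filled, whereas the other 4 lists drawn hold points on both sides of 0 or open points.

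The 9 enzymes varied together across the 11 arrays. Pearson's r of log2 signal over the 36 pairs was 0.891 for Idh3a and Mdh2 at the lowest, 0.966 at the median and 0.995 for Idh3b and Suclg1 at the highest. Set against the mean of the other 8, r was lowest for Mdh2, at 0.944, and highest for Suclg1, at 0.994. These values describe arrays that fall into 3 groups with large differences between them, and arrays share whatever sets their groups apart.

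Of 9046 other genes, 323 had an r above 0.9 with the mean of the 9 enzymes over the 11 arrays. The 8 most alike were Cyc1 (0.997), Acadvl (0.997), Acaa2 (0.994), Acadl (0.994), Macrod1 (0.994), Sdhb (0.993), Micos10 (0.990) and Chchd10 (0.990). Acadvl, Acadl and Acaa2 encode enzymes of mitochondrial fatty acid oxidation. Acaa2 had mean signals of 1222 ± 316 in ATLO, 10740.0 ± 5584 in outside-lesion and 4205 ± 769 in wild-type arrays, with a change of -2.89 ± 0.46 in ATLO against outside-lesion adventitia. Acadvl changed by -2.43 ± 0.38 and Acadl by -2.33 ± 0.27 in the same comparison, and each of the 3 had a larger estimate than at least 8 of the 9 cycle enzymes.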

How the data were processed

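Adventitia of the mouse abdominal aorta was measured on 11 Affymetrix arrays. The authors deposited a linear signal intensity for each probe set, made with GCOS 1.4 per the submitters' processing notes. With the top and bottom 2% of probe sets trimmed off, array means were 500.168 to 500.266, so arrays had been scaled before deposit. Precision is limited by the number of arrays, as intensities carry no read depth.

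Of 22690 probe sets, 64 controls were left out. In the platform annotation 20380 of the other 22626 were given a single gene symbol, 691 more than that and 1555 no symbol. Deposited signals below 35.1, the 20th percentile, were set to that floor before log2 was taken, which understates changes near the floor. The 14988 probe sets above their array's 40th percentile on at least 3 arrays were tested with limma 3.58.1 in R 4.3.3, with 1 mean per group over 11 arrays and an intensity trend. P-values were adjusted by Benjamini-Hochberg over all 14988 with 0.05 as the threshold. Errors beside log2 changes are SE, and those of signals are SD. The fit was tested on simulated data.

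The members and lists were chosen with earlier results of these data known. Named were all members, all other cycle subunits, the 3 genes of each pathway list with the largest called change in ATLO against outside-lesion adventitia, Ucp1, Cidea, Adipoq, Apoe and the 8 genes most alike to the members. The rule also names the 2 brightest genes of each marker list, which are covered here by counts and summed signals. Nnt, Pck2, Elovl3, Dio2, Esrra, Nrf1, Gabpa and Tfam were named after their values were seen. Alternatives were other normalizations, floors and filters, array weights, no trend, a 2-fold threshold, the replicate number as a block, only the compared groups, the actin ratio as a covariate, other probe sets of a gene and each array left out. Genome coordinates are given only for RefSeq windows, since no build is named for the arrays.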

Additional observations from a re-analysis of the deposited data

Results flagged for a closer look

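Among the 17 probe sets in the ATLO and the outside-lesion group, 34 sets of 4 arrays in all, 8 held an array whose gap to the nearest of the others, divided by the range of the group, exceeded Dixon's 95% critical value. Chance sets apart about 1 in 20 such sets, and probe sets on the same arrays are not independent.

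In 7 of the 8 the array was outside-lesion replicate 2. Its signal for Cs was 8220.1, with the others at 16964.7 to 18811.7, and for Idh3a it was 4288.2, with the others at 9953.8 to 11332.8. The Idh3g probe sets gave 5830.1 there, with the others at 15193.5 to 16058.3, and 3238.9, with the others at 7512.6 to 8629.3. Ogdh was at 1794.4, with the others at 4231.8 to 4945.9, and Dlst at 1526.8, with the others at 3752.4 to 4328.2. Fh1 was at 3369.2, with the others at 7922.8 to 8719.6.

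The remaining case was a second probe set of Cs in ATLO replicate 2, at 2268.8, with the others at 2771.3 to 2885.1.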

How the results depend on the processing

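The 9 enzymes fell in ATLO against outside-lesion adventitia under each alternative except that of the least significant probe set of a gene, under which 8 did (Dlst did not). Against wild type, where 8 of the 9 fell, 4 did with no filter and 3 to 9 with each array left out in turn. Mdh2 passed with the replicate block, at -0.66 (adjusted p = 0.0466). In outside-lesion against wild-type adventitia none passed, 6 did with array weights and 0 to 7 with an array left out. Over all probe sets, 4777 calls in the first comparison became 2552 with the actin covariate and 2346 with a 2-fold threshold, and 4012 in the second became 2009 with that threshold. The 489 calls of the third became 301 with no filter, 189 with the replicate block, 1530 with array weights, 248 with no intensity trend, 86 with the actin covariate, 247 with only the compared groups, 238 with a 2-fold threshold, and 21 (without wild-type replicate 2) to 887 (without outside-lesion replicate 2) with an array left out. Equal array medians moved the median of all probe sets in the first comparison to -0.01 and split its calls into 1985 higher and 2517 lower, where the deposited scaling gave 2688 and 2089; they gave 557 and 81 in the third, against 258 and 231. Of 648 single-gene values, 611 kept direction and side of the threshold, 19 newly passed, 18 no longer passed and none reversed. Causes were not tested. Deviations of arrays with the same number correlated by -0.18 to 0.27, so the numbers were not taken to pair samples.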
